A study of Homo sapiens with 4 samples.

Results

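Gene deserts are long stretches of a chromosome with few protein-coding genes. The 4 stretches described here are chr1:187000000-192000000, chr5:20000000-31000000, chr6:77000000-82000000 and chr13:53600000-72000000 in GRCh37 positions, 39.4 Mb in all. A peak belonged to them if its midpoint lay inside, whatever its width, score or strand. Of 278959 peaks listed in 4 libraries, 2467 did. They were compared with the 276025 peaks on the rest of the nuclear genome, which leaves out the mitochondrial genome.

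The libraries come from CLIP-seq of SAF-A in HCT116 cells, an established human colorectal carcinoma line with wild-type SAF-A. CLIP-seq crosslinks RNA to protein with ultraviolet light, pulls the protein down with an antibody and sequences the RNA fragments that come with it. The pull-down group (SAF-A antibody) and the input group (lysate without antibody) had 2 libraries each. Both kinds were crosslinked, trimmed with RNase A and cut from the same size range of a membrane, so the inputs serve as a size-matched background of all RNA crosslinked to proteins of that size. Whether the replicates were grown separately is not given in the sources used here, and p-values may therefore measure technical spread alone.

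SAF-A, also called hnRNP U, is an abundant nuclear protein that binds RNA through a glycine-rich C-terminal region and DNA through an N-terminal SAP domain. It is known for binding nascent and intronic RNA broadly, with little sequence preference, and for keeping chromatin-associated RNA in the nucleus. The comparisons ask whether peaks in the deserts formed runs on 1 strand or stood alone on either strand, how wide they were and how often they recurred.

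The gene-desert label was set against RefSeq gene order. No annotation of the build of the positions was used here, and the table is on GRCh38.p14, so genes are given by order between flanking genes and no peak was assigned to a gene. That these flanking genes border the stretches is background knowledge. The chromosome 1 stretch, between PLA2G4A and RGS18, held 1 protein-coding gene, BRINP3, a gene of the nervous system. On chromosome 5, from CDH18 up to CDH6, the table held 6 protein-coding genes, among them CDH18, CDH12, CDH10 and CDH9, which encode cadherins (cell adhesion proteins), and PRDM9, which sets the sites of meiotic recombination. Chromosome 13 had 15 from OLFM4 up to DACH1, with PCDH17, PCDH20 and PCDH9, which encode protocadherins, and the PRR20A to PRR20E copies. The chromosome 6 stretch, between IMPG1 and TENT5A, held 12, including TTK, a kinase of the mitotic spindle checkpoint, and PHIP and HMGN3, which encode chromatin proteins. By this count it was the least gene-poor of the 4 for its length. The table also placed 172 long non-coding RNA genes and 130 pseudogenes in these intervals, so the stretches are poor in protein-coding genes but not free of annotated transcripts.

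Peaks in the deserts numbered 966 and 1011 in pull-downs 1 and 2, against 204 and 286 in inputs 1 and 2. That is 24.5 and 25.7 peaks per Mb in pull-downs and 5.18 and 7.26 per Mb in inputs. Because the pull-down lists are longer (96061 and 111256 peaks, against 29386 and 42256 in inputs), the share of the list is the fairer measure. The deserts held 1.01% (95% Wilson interval 0.944 to 1.07) and 0.909% (0.855 to 0.966) of the pull-down lists, against 0.694% (0.606 to 0.796) and 0.677% (0.603 to 0.760) of the input lists. Both pull-downs lay above both inputs. The means were 0.957 ± 0.0685% in pull-downs and 0.686 ± 0.0123% in inputs (SD, n = 2 each), a ratio of 1.40 (log2 0.48). The two-sided exact permutation test gave p = 0.333, the smallest that 2 against 2 allows. The log2 ratio was 0.31 for narrow peaks of at most 20 bases alone and 2.0 for wide peaks of at least 50 bases alone. The wide value rests on few peaks, 55 and 67 in pull-downs and 5 and 10 in inputs. Intervals here cover counting error only, and neighbouring peaks are not independent. Read depth is unknown, and fewer bound sites cannot be told apart from shallower sequencing.

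The pull-down excess was seen in each stretch. Chromosome 1 had 138 and 152 pull-down peaks against 34 and 36 input peaks, and chromosome 5 had 294 and 306 against 62 and 90. Chromosome 6 had 120 and 134 pull-down peaks against 30 and 42 input peaks, and chromosome 13 had 414 and 419 against 78 and 118. As a ratio of mean list shares, pull-down over input, this came to 1.40 on chromosome 1, 1.37 on chromosome 5, 1.22 on chromosome 6 and 1.48 on chromosome 13. In each stretch both pull-down shares lay above both input shares. The 95% Wilson intervals were apart on chromosome 13 alone, from 0.342% upwards in pull-downs and up to 0.334% in inputs. On chromosomes 1, 5 and 6 at least 1 pull-down interval overlapped an input interval.

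No desert lacked pull-down peaks over a megabase. Across the 39 whole regions of 1 Mb, pull-down 1 had 13 to 35 peaks (median 25) and pull-down 2 had 11 to 41 (median 25). Input 1 had 0 to 14 (median 5, with 2 regions at 0) and input 2 had 2 to 16 (median 7). Every one of these regions held peaks on both strands in each pull-down.

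**Figure D1:**
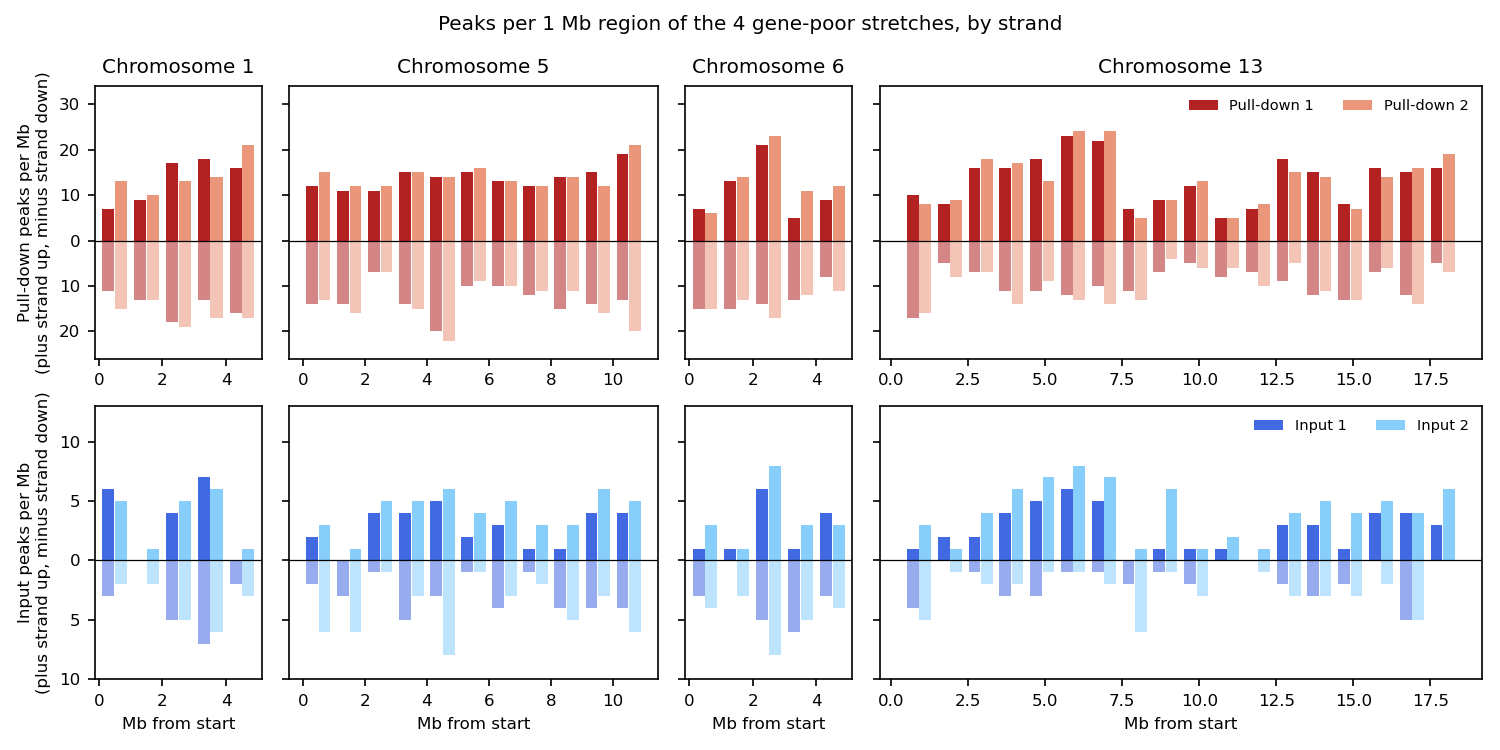
Peaks in each 1 Mb region of the 4 stretches, plotted by distance from the start of the stretch in Mb, with plus-strand peaks drawn upwards and minus-strand peaks downwards in paler colour; bars are single libraries, pull-downs in the upper row and inputs in the lower row, each row with its own scale, and the incomplete first region of chromosome 13 is not drawn. Pull-down 1 ranged from 13 to 35 peaks per region over both strands, and both strands carried peaks along all 4 stretches.

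Regional differences between pull-down and input were tested with limma on the log2 share of each list, in every 1 Mb region of the genome with a mean of at least 10 peaks. Of 35 desert regions tested, 10 were higher in pull-down and 0 were lower, at an adjusted p under 0.05. Over all 2776 tested regions, 15.9% were higher and 11.1% were lower. In the deserts 11 regions had an unadjusted limma p under 0.05, all of them higher in pull-down. Over all 2776 tested regions 1051 did, 633 of them higher. With limma-voom 7 desert regions were higher and 0 lower, against 416 higher and 332 lower over all tested regions. The median log2 ratio was 0.36 over desert regions and 0.11 over all tested regions. Of the 35 desert regions 30 lay above 0 (85.7%), against 60.7% of all tested regions. The count of higher regions changed widely when single libraries were left out. The median log2 ratio over desert regions was then 0.23 without pull-down 1, 0.56 without pull-down 2, 0.35 without input 1 and 0.42 without input 2. Over all tested regions it was 0.089, 0.13, 0.13 and 0.077 in that order. With narrow peaks alone 1 of 32 desert regions was higher, against 15 of 2575 over all. With lists of equal length 0 of 4 were, against 25 of 1237.

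The region with the smallest adjusted p was chr1:191000001-192000000, with 32 and 38 peaks in pull-downs and 2 and 4 in inputs (log2 1.85, SE 0.28, limma adjusted p = 6.78e-06). Next came chr6:78000001-79000000, with 28 and 27 pull-down peaks against 1 and 4 input peaks (log2 1.88, SE 0.38, limma adjusted p = 0.000292). In both, the pull-downs were alike and the inputs nearly empty. Chr1:188000001-189000000 had 22 and 23 pull-down peaks against 0 and 3 input peaks (limma adjusted p = 0.00264). Its fitted log2 ratio of 2.57 depends on the 0.5 added to each count, since input 1 had none. For all desert regions, the limma SE and p-value measure the spread between lists of the same kind. Such lists share many sites, so the SE may understate the counting error where input peaks are few.

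On chromosome 5, chr5:27000001-28000000 had 24 and 23 pull-down peaks against 2 and 5 input peaks (log2 1.14, SE 0.33, limma adjusted p = 0.00934). Chr5:25000001-26000000 had 25 and 25 against 3 and 5 (log2 0.99, SE 0.29, limma adjusted p = 0.0103). The other 5 called regions, 1 on chromosome 5 and 4 on chromosome 13, had log2 ratios of 0.56 to 0.84. The lowest ratio among desert regions was at chr1:190000001-191000000, with 31 and 31 pull-down peaks against 14 and 12 input peaks (log2 -0.33, SE 0.21, limma adjusted p = 0.264). The region before it was not called and the region after it was called higher. This last region was named after its values were seen.

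**Figure D2:**
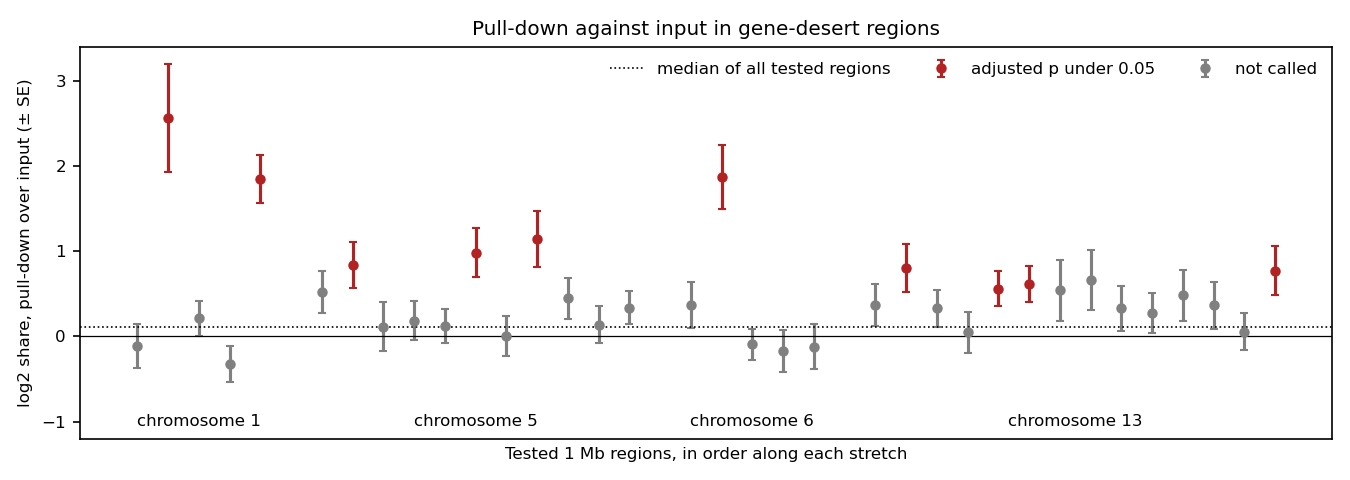
The log2 ratio of list share, pull-down over input, with its limma standard error, for the 35 tested 1 Mb desert regions in order along each stretch. The 10 called regions, in red, include the 3 with the highest ratios (2.57, 1.88 and 1.85), and the dotted line is the median of all 2776 tested regions, 0.11.

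Desert peaks were narrow. Peaks of at most 20 bases made up 85.0% (82.6 to 87.1) and 83.5% (81.1 to 85.6) of desert peaks in pull-downs 1 and 2, and 90.7% (85.9 to 94.0) and 87.1% (82.7 to 90.5) in inputs 1 and 2. Outside the deserts the same shares were 68.1% and 63.7% in pull-downs and 65.3% and 58.2% in inputs. Every library had more narrow peaks in the deserts, by 22.7 percentage points on average. The exact sign-flip test over the 4 libraries gave p = 0.125, the smallest it allows.

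Wide peaks of at least 50 bases were correspondingly few. They made up 5.69% and 6.63% of desert peaks in pull-downs and 2.45% and 3.50% in inputs, against 16.3% and 19.4% in pull-downs and 22.3% and 26.8% in inputs on the rest of the genome. Within the deserts both pull-downs thus had a higher wide share than both inputs, whereas on the rest of the genome both pull-downs had a lower one. The median desert peak was 12 bases wide in both pull-downs, 11 in input 1 and 12 in input 2. Scores did not set desert peaks apart in the same way: the median score was 19 and 20 in pull-downs and 17 and 17 in inputs, against 19 and 19 in pull-downs and 17 and 16 in inputs on the rest of the genome.

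The stretches differed in width. Chromosome 6 had the most wide peaks, 13.3% and 14.2% in pull-downs and 10.0% and 11.9% in inputs. Chromosome 13 was the lowest in pull-down 1 and pull-down 2, with 3.86% and 4.77%, and had 1.28% and 2.54% in inputs. The chromosome 6 values, from the stretch with the most protein-coding genes for its length, came nearest to those of the rest of the genome. Small numbers lie behind the input values, with 30 and 42 peaks on chromosome 6.

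**Figure D3:**
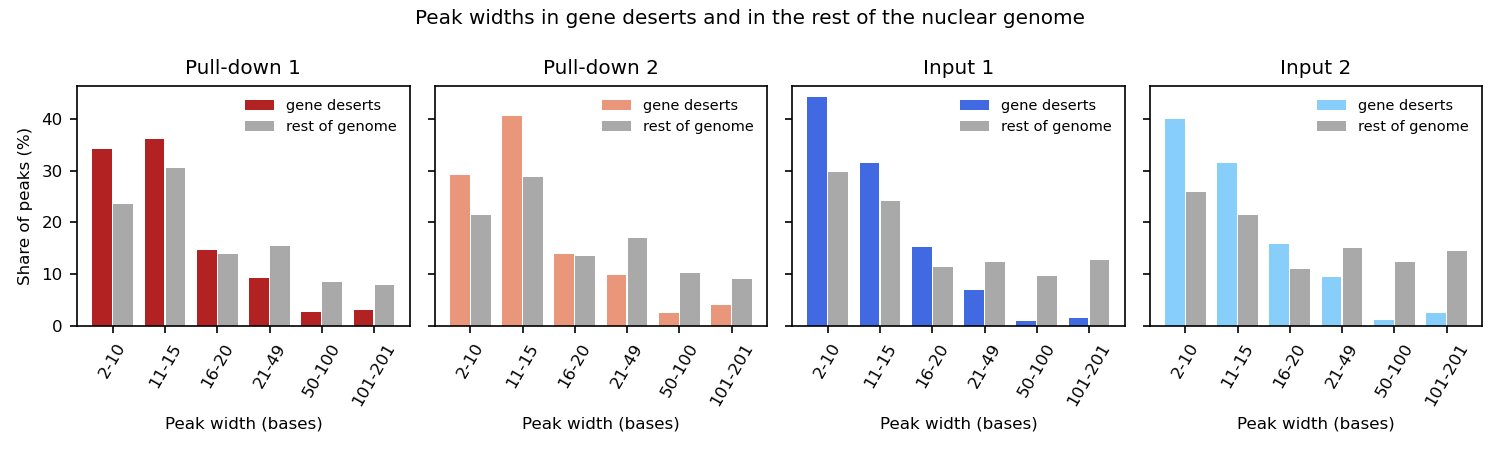
Share of peaks (%) in 6 classes of width (bases), 1 panel per library, with gene deserts in colour and the rest of the nuclear genome in grey. In each library the 2 narrowest classes hold a larger share in the deserts and the 3 widest a smaller one.

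At a distance of 10 kb, most desert peaks stood alone. A peak was called isolated if no other peak of the same library and strand lay within 10 kb. In pull-downs 1 and 2, 70.9% (68.0 to 73.7) and 71.7% (68.9 to 74.4) of desert peaks were isolated, and in inputs 1 and 2, 90.7% (85.9 to 94.0) and 88.8% (84.6 to 92.0). Outside the deserts, 60.9% and 55.6% of pull-down peaks and 74.8% and 68.1% of input peaks were isolated. Every library had more isolated peaks in the deserts, by 15.7 percentage points on average (exact sign-flip test, p = 0.125, the smallest possible). Among narrow peaks alone the difference was smaller, 3.42 points, 83.1% in deserts against 79.6% on the rest. It was 10.2 points with lists of equal length, 10.2 in the better-scoring 50% and 9.24 at a distance of 2 kb. At 50 kb it was 18.4 points, and a mean of only 47.3% of desert peaks were isolated, against 28.8% on the rest. Isolation at a fixed distance depends on how densely peaks lie. The median distance to the nearest peak on the same strand was 21.5 and 23.6 kb in desert pull-downs, against 15.3 and 12.5 kb on the rest. In inputs it was 137 and 92.4 kb, against 44.0 and 28.4 kb. The part of density in the difference in isolation was not tested.

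Within the deserts, pull-down peaks were less often isolated than input peaks, with a difference of -18.4 points and no overlap between the groups (exact permutation test, p = 0.333, the smallest possible). The pull-downs also had more peaks there, and with lists cut to equal length the difference was -3.90 points, 87.5% in pull-downs against 91.4% in inputs. At 2 kb it was -4.86 points and at 50 kb -41.1 points. At 50 kb most pull-down desert peaks were not isolated, with 26.7% isolated in pull-downs against 67.8% in inputs.

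Runs on 1 strand with gaps of at most 10 kb were few and short. A run was at least 3 peaks of a library on the same strand, each within 10 kb of the next. Pull-down 1 had 16 desert runs with 57 peaks (5.90% of its desert peaks, 4.58 to 7.57) and pull-down 2 had 22 runs with 72 peaks (7.12%, 5.69 to 8.87). Input 1 had 1 run of 3 peaks (1.47%, 0.501 to 4.23). Input 2 had no peak in a run, 0 of 286, which allows a share of up to 1.05%. By stretch, the share in pull-down 1 ran from 2.90% on chromosome 13 to 12.5% on chromosome 6. In pull-down 2 it ran from 4.61% on chromosome 1 to 9.80% on chromosome 5, with 9.70% on chromosome 6. On the rest of the genome 17.8% and 23.1% of pull-down peaks and 13.4% and 18.6% of input peaks lay in runs. The desert share was lower in every library, with a mean difference of -14.6 points (exact sign-flip test, p = 0.125, the smallest possible). As with isolation, the difference was smaller among narrow peaks alone, 2.59% against 5.67% or -3.08 points. It was between -9.37 and -6.32 points with better-scoring peaks, equal lists, a 2 kb gap or runs of at least 5 peaks. With a 50 kb gap it was -22.1 points, and runs then held a mean of 30.9% of desert peaks against 53.0% on the rest. Runs, like isolation, depend on how densely peaks lie, and the part of density in this difference was not tested.

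The longest desert run had 5 peaks in pull-down 1, 4 in pull-down 2 and 3 in input 1, whereas runs elsewhere reached 305 and 369 peaks in pull-downs and 43 and 57 in inputs. No desert run spanned more than 24.5 kb, and the median span was 10.2 kb in pull-down 1 and 8.31 kb in pull-down 2. Of the runs, 8 in each pull-down overlapped a run in the other. At least 1 wide peak lay in 6 of 16 runs in pull-down 1 and in 2 of 22 in pull-down 2. Wide peaks made up 9 of the 57 run peaks in pull-down 1 (15.8%) and 4 of the 72 in pull-down 2 (5.56%), against 5.69% and 6.63% of all their desert peaks.

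The runs of 5 peaks, both in pull-down 1, were chr13:58193952-58215687 on the plus strand and chr6:80860557-80883557 on the minus strand. The chromosome 13 run had 1 of its peaks in pull-down 2 and 3 in an input, and the chromosome 6 run had 3 in pull-down 2 and 1 in an input. So neither was repeated peak for peak. Of the 5 runs of 4 peaks in pull-down 1, the first in chromosome order was chr1:189471568-189485203 on the plus strand, with 1 peak found in pull-down 2 and 0 in an input.

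In pull-down 2 the first runs of 4 peaks in the same order were chr1:191943552-191968063 on the minus strand, chr5:22747696-22760790 and chr5:27480054-27487459, the last a pair of plus-strand runs on chromosome 5. The first of these plus-strand runs had all 4 of its peaks in pull-down 1 as well, and 1 in an input. The other had 2 of 4 in pull-down 1 and held 2 wide peaks. The first of the chromosome 5 runs was thus the clearest repeated run among those named, and 1 peak on the opposite strand lay within it in each pull-down.

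Neighbouring desert peaks were close to evenly split between the same strand and the opposite one. The next peak along the chromosome lay on the same strand in 54.2% (51.1 to 57.4) and 53.6% (50.5 to 56.7) of cases in pull-downs, and in 42.6% (36.1 to 49.5) and 54.2% (48.4 to 59.9) in inputs. Elsewhere in the genome this share was 56.9% and 58.1% in pull-downs and 58.0% and 59.3% in inputs. With the stretches pooled, every library was lower in the deserts, with a mean difference of -6.90 points (exact sign-flip test, p = 0.125, the smallest possible). The chromosome 6 stretch was not lower in pull-downs, with 60.8% (51.9 to 69.1) and 59.0% (50.5 to 66.9), intervals that include the rest. The other stretches lay below the rest in both pull-downs. The chromosome 13 intervals, 50.0 to 59.6 and 50.6 to 60.1, still included the rest. So did that of pull-down 1 on chromosome 1, 46.7 to 63.1. In inputs chromosome 6 had 43.3% and 57.1%. With lists of equal length 1 of 4 libraries, pull-down 1, was higher in the deserts, by 1.47 points (exact p = 0.25). The mean difference was -4.09 points without input 1 and -3.70 points among narrow peaks alone. Among sites shared by both pull-downs the deserts were not lower, with 55.1% of 671 pairs of next sites against 54.3% on the rest. Among sites shared by both inputs they were, with 42.8% of 166 pairs against 56.6%.

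In pull-downs the deserts and the rest differed most at short gaps. Of desert pairs at most 1 kb apart, 18 of 32 (56.2%, 39.3 to 71.8) in pull-down 1 and 19 of 39 (48.7%, 33.9 to 63.8) in pull-down 2 lay on the same strand. The inputs had 2 and 1 such pairs, too few to read. On the rest of the genome the share at this gap was 73.0% and 75.0% in pull-downs and 86.2% and 85.2% in inputs. In both pull-downs the desert interval lay below the value for the rest. At gaps of 1 to 10 kb the desert shares were 59.7% and 58.1% in pull-downs, against 60.6% and 61.7% on the rest of the genome, which lie inside the desert intervals. In input 1, pairs over 100 kb apart shared a strand in 39.1% of 115 cases (30.7 to 48.3), against 51.0% on the rest of the genome, and input 2 did not show this, with 52.1% (43.9 to 60.2).

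**Figure D4:**
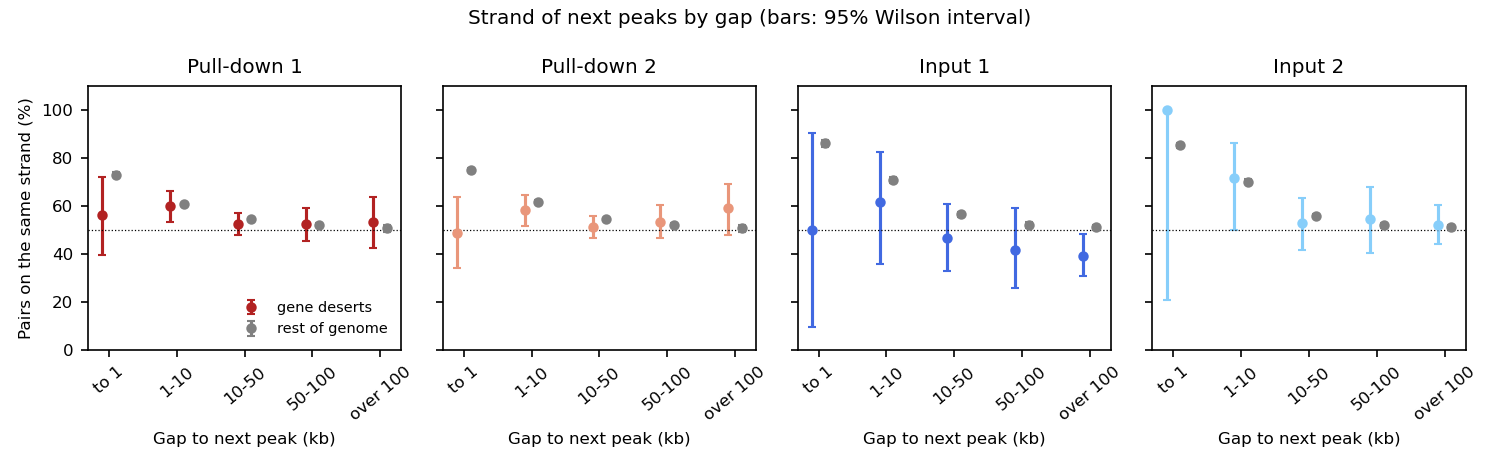
Share of neighbouring peak pairs on the same strand (%) by the gap between them (kb), 1 panel per library, with deserts in colour, the rest of the genome in grey and 95% Wilson intervals; the dotted line marks 50%. At gaps of at most 1 kb the pull-down desert values are 56.2% and 48.7%, against 73.0% and 75.0% on the rest of the genome, while at wider gaps the pull-down desert intervals include the value of the rest.

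Both strands were used about equally. Plus-strand peaks were 53.3% and 52.5% of desert peaks in pull-downs and 52.5% and 55.2% in inputs. Chromosome 13 leaned most to the plus strand, with 58.5% (53.7 to 63.1) and 56.8% (52.0 to 61.5) in pull-downs and 60.3% (49.2 to 70.4) and 64.4% (55.4 to 72.5) in inputs, so the lean was present in both kinds of library. No desert peak overlapped a peak on the opposite strand in its own library, 0 of 966 and 0 of 1011 in pull-downs and 0 of 204 and 0 of 286 in inputs, which allows shares of up to 0.311%, 0.297%, 1.47% and 1.05% in that order. The share elsewhere was 0.137% and 0.142% in pull-downs and 0.172% and 0.201% in inputs, below each of these limits, so no difference from the rest was detectable.

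Sites shared by both pull-downs occurred in every whole 1 Mb region. There were 675, and the 1 Mb regions held 9 to 28 of them (median 17). The strand with more sites held a median of 60% of a region's sites, and 1 of 39 regions exceeded 80%. Regions elsewhere with at least 10 shared sites were similar, with a median of 58.8% and 2.18% of regions over 80%. In desert regions with as many sites these values were 60% and 2.86%. Of the 788 windows of 100 kb on 1 strand, 343 (43.5%) held none and the fullest held 5. The variance of the count per window divided by its mean was 1.02, where 1 is the value for independent placement at an even rate. In regions elsewhere with at least 10 shared sites it was 2.42, and a window held up to 110. Those regions held 10 to 216 shared sites, and differences in rate between regions also raise the ratio. The comparison therefore cannot show a more even local spread in deserts, since regions were not matched for their number of sites. By stretch this ratio was 0.684 on chromosome 1, 0.948 on chromosome 5, 1.18 on chromosome 6 and 1.14 on chromosome 13.

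The fullest desert windows, with 5 shared sites each, were both on the plus strand. Chr5:22700001-22800000 had 5 and 5 peaks in pull-downs and 1 and 1 in inputs, and 4 of its 5 shared sites were absent from both inputs. Chr13:59600001-59700000 had 5 and 6 peaks in pull-downs, 3 and 4 in inputs, and 1 of its 5 shared sites was absent from both inputs. The chromosome 5 window contains the repeated run of 4 peaks. In the other 6 windows named by rule, the 2 fullest of each stretch, 3 or 4 sites were shared by both pull-downs.

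Most pull-down desert peaks recurred in the other pull-down. Of desert peaks, 69.9% (66.9 to 72.7) in pull-down 1 and 66.8% (63.8 to 69.6) in pull-down 2 overlapped a same-strand peak of the other pull-down. In inputs 1 and 2, 83.3% (77.6 to 87.8) and 59.4% (53.7 to 65.0) overlapped a peak of the other input. On the rest of the genome the shares were 65.5% and 56.6% in pull-downs and 77.6% and 54.1% in inputs. All 4 libraries were higher in the deserts, by 6.39 points on average. Both libraries of a pair count the same matches, 675 between the pull-downs and 170 between the inputs, so these are 2 reciprocal pairs. The exact sign-flip test over the 4 libraries, p = 0.125, takes no account of this, and within either pair it gives p = 0.5. The difference was 3.37 points in the better-scoring 50% and 10.4 points when 50% of both peaks had to overlap.

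Recurrence was lowest among peaks with the lowest scores. In pull-down 1, 56.7% of desert peaks scoring 10 to 14 were found in pull-down 2, and 75.7% of those scoring 15 to 24. In pull-down 2 these shares were 43.3% and 77.2%. Above that the share stayed between 68.8% and 80.7% in both pull-downs. Narrow desert peaks recurred at 69.8% and 66.1% in pull-downs and wide ones at 69.1% and 64.2%, with overlapping intervals. On the rest of the genome pull-down 1 had 68.0% for narrow and 56.2% for wide peaks, and pull-down 2 had 61.8% and 41.0%. The inputs held few wide desert peaks: 4 of 5 recurred in input 1, where 83.2% of narrow ones did, and 1 of 10 in input 2 (10.0%, 1.79 to 40.4), where 59.8% (53.6 to 65.7) of narrow ones did.

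Overlap between the kinds of library was lopsided. Desert peaks found in at least 1 input made up 27.2% (24.5 to 30.1) and 25.9% (23.3 to 28.7) of the pull-down peaks. Desert input peaks found in at least 1 pull-down made up 90.7% (85.9 to 94.0) and 88.5% (84.2 to 91.7). For the rest of the genome these shares were 29.9% and 26.6% for the pull-downs and 71.0% and 67.7% for the inputs. In the deserts nearly all input peaks thus lay on pull-down peaks, and both inputs were higher there than on the rest, while the pull-down differences, -2.67 and -0.67 points, depended on the setting. They were 2.99 and 1.64 points with lists of equal length, and 0.048 and 0.899 points when 50% of both peaks had to overlap. Among narrow peaks of the rest of the genome, 83.9% and 84.0% of input peaks were found in a pull-down, closer to the desert value than all peaks were.

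The share of pull-down peaks also present in an input moved with the score. In pull-down 1 it was 6.38% at scores of 10 to 14, 14.8% at 15 to 24, 44.5% at 25 to 49, 68.8% at 50 to 99 and 72.9% at 100 or more. Pull-down 2 had 5.41%, 15.2%, 39.8%, 63.6% and 77.3% over the same classes. Of desert peaks scoring 100 or more, 35 of 48 in pull-down 1 and 34 of 44 in pull-down 2 were thus in an input too, and 33 and 34 were in the other pull-down.

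Merging overlapping same-strand peaks of the 4 libraries gave 1347 desert sites. Of these, 640 (47.5%) were listed in 1 library, 446 (33.1%) in 2, 109 (8.09%) in 3 and 152 (11.3%) in all 4. On the rest of the genome the shares were 55.8%, 26.4%, 7.52% and 10.2%. The 2-library class was mostly sites of both pull-downs: 425 sites, 31.6% (29.1 to 34.1) of desert sites against 22.2% on the rest. Sites of both inputs alone were rare, 7 sites or 0.520% (0.252 to 1.07) against 2.80%.

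**Figure D5:**
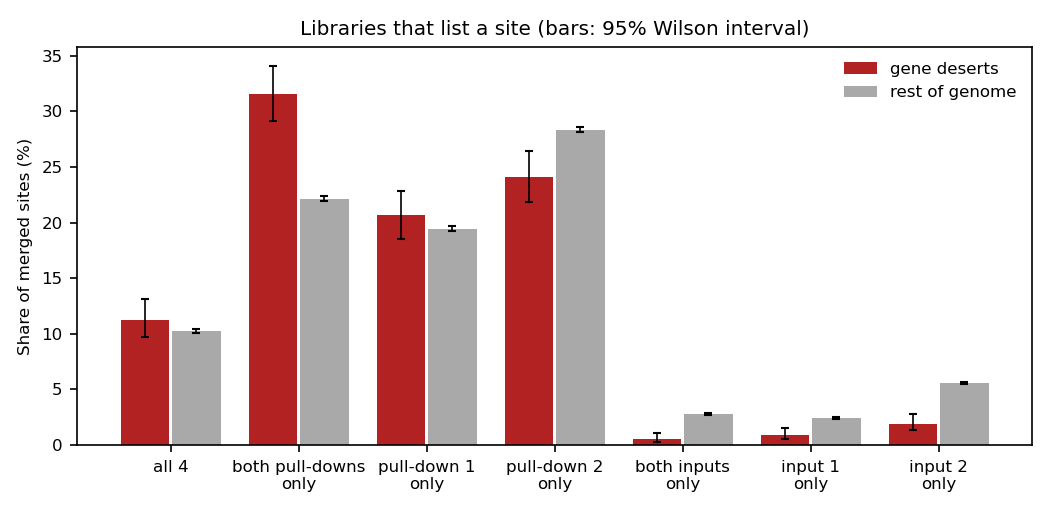
Share of merged sites (%) by the libraries that list them, for gene deserts (red) and the rest of the genome (grey), with 95% Wilson intervals; sites in other mixtures of pull-down and input libraries are not drawn. Sites of both pull-downs alone make up 31.6% in deserts against 22.2% on the rest, and sites of both inputs alone 0.520% against 2.80%.

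Of the 675 sites shared by both pull-downs, 425 were free of input peaks (63.0%, 59.3 to 66.5), against 57.0% on the rest of the genome. With lists of equal length the order turned, 20.4% in deserts (34 of 167 sites) against 21.7% on the rest. By stretch the share was 67.0% on chromosome 1, 62.3% on chromosome 5, 59.3% on chromosome 6 and 63.2% on chromosome 13, with overlapping intervals. Both edges differed between the pull-downs by at most 2 bases at 321 sites (47.6%), against 38.2% on the rest, and both edges were identical at 52 (7.70%, against 6.76%). Narrow sites made up 76% of the shared desert sites and 60.1% of those on the rest, and their part in this difference was not tested. Their scores in pull-down 1 and pull-down 2 had a Spearman correlation of 0.76 across the 675 sites, the same as on the rest of the genome. Sites are not independent replicates, and this value is a description.

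Only 62 of the 675 shared sites were wide (9.19%, against 20.3% on the rest). Wide shared sites were missing from 9 of the 39 desert regions. Of regions elsewhere with at least 10 shared sites, 6.86% had none, and of the 35 desert regions with as many, 22.9% had none.

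Of the sites listed in all 4 libraries, the 5 with the best mean rank by score are described here. The site chr5:20555561-20555589 on the minus strand, 29 bases wide, scored 270 and 332 in pull-downs and 179 and 246 in inputs. At chr13:63302161-63302186, minus strand and 26 bases, the scores were 284 and 273 in pull-downs and 178 and 258 in inputs. Both sites, somewhat wider than the narrow class, ranked near the top of every list, at 95 to 375 by score.

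The third by rank, chr13:57239341-57239471 on the minus strand, was wide at 131 bases and scored 259 and 240 in pull-downs and 191 and 234 in inputs. Plus-strand sites followed at chr6:77760319-77760349 (224 and 304 in pull-downs, 138 and 193 in inputs) and chr5:30982291-30982316 (195 and 331 in pull-downs, 163 and 178 in inputs). Scores are the authors' own and rank peaks within a list, so they set no level across libraries.

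Sites of both pull-downs with no input peak ranked far lower. The best was chr5:23973169-23973180 on the minus strand, 12 bases wide, with scores of 57 and 55 and ranks of 11669 and 13637 in the lists. Next was chr6:78877835-78877856 on the plus strand, 22 bases, with scores of 54 and 57. The following sites, chr5:22756185-22756202 and chr5:24604958-24604979 on the plus strand and chr5:20831719-20831729 on the minus strand, scored between 39 and 57. All of them were narrow or 22 bases wide, and the third lies inside the repeated run of 4 peaks on chromosome 5.

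The 7 sites of both inputs with no pull-down peak mostly had low scores too. The best, chr13:61916297-61916317 on the minus strand, scored 48 and 51. The next 4 were chr6:79064968-79064983 on the minus strand, and chr6:80492477-80492487, chr1:187319208-187319213 and chr1:189920787-189920796 on the plus strand, with scores of 10 to 30. None of the 7 was wide.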

How the data were processed

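The authors deposited 1 peak list per library, with positions and a strand. Each deposited score is a whole number, at least 10, with no stated meaning, and was used only within a list. STAR, featureCounts and GRCh38 are named, without versions, in the submitters' processing notes; the peak caller is not given in the sources used here. Of 278492 nuclear peaks, 1214 run beyond the chromosome's last base in GRCh38 and 0 do so in GRCh37 (lengths from general knowledge), so positions are taken as GRCh37, 1-based. No sequence is shown, since no genome of this build was used here.

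Stretches, lists and rules for named sites were chosen with earlier results of these data known. The named sites are the 5 best by mean rank in each class, the 3 runs with the most peaks (ties in chromosome order, settled after the data were seen), the 2 fullest windows per stretch, the 3 longest peak-free parts and up to 5 called regions per direction. Peaks matched by at least 1 base on the same strand. Regions of 1 Mb were tested with limma 3.58.1 in R 4.3.3 (trend, Benjamini-Hochberg 0.05) on log2 of peaks per 10000 listed, 0.5 added. Single values used exact two-sided tests in Python 3.11.15. The functions were tested on simulated data. Alternatives varied list length, score, width, distance, overlap, normalization and libraries.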

Additional observations from a re-analysis of the deposited data

How the results depend on the processing

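Of 105 alternatives over 11 results, 95 counted as kept. Results with an exact test had to keep the direction and the side of the threshold, and counts of regions to stay within 1.5 times. For the input-free share, the difference could shift by no more than the distance from the main desert share to its 95% Wilson limits. Of the alternatives not kept, 9 moved a count of regions by over 1.5 times and 1 reversed. The exact tests could never fall below 0.05 (smallest p 0.125 by sign-flip, 0.333 by permutation). For those results only a change of direction could count, and a smaller difference still counted as kept. The isolated share, desert minus rest, was 3.42 points with narrow peaks alone against 15.7. The reversal was the input-free share of shared sites, desert minus rest, which was -1.36 points with lists of equal length against 6.0. The number of higher desert regions, 10 of 35, was 2 with a minimum of 20 peaks (7 regions tested), 1 in regions of 500 kb, 6 with each library centred on its median region, 0 with equal lists, 1 in the better-scoring 50% and 1 with narrow peaks. It ranged from 1 to 14 with 1 library left out, and the number of lower regions from 0 to 2. For both, a lone library was assumed to vary like the other group. Several settings tested fewer regions. For the others the cause was not tested. Over the whole genome the higher regions numbered 265 of 1654 with the minimum of 20 and 279 of 3138 in regions of 500 kb. They numbered 308 of 2776 with centring, 25 of 1237 with equal lists, 129 of 1798 in the better-scoring 50% and 15 of 2575 with narrow peaks. With the replicate block 9 desert regions were higher, against 462 of 2776 over all. Deviations of same-numbered libraries from their group means correlated at 0.053 over 2776 regions. This cannot show whether they came from the same lysate or batch, so pairing is unknown. No other result could be fitted with a block because those tests use single values. Wide peaks alone left no desert region to test. Alternatives with narrow peaks alone in isolation, runs, strand and recurrence, and those leaving out libraries in recurrence, were chosen after seeing the data; the recurrence in the other kind of library was 2.42 points higher in deserts with narrow peaks alone, against 9.26. That mean kept its sign under equal lists and 50% overlap, but the pull-downs' own values turned from below to above 0. Read depth is unknown, so absence of an input peak may reflect a shorter list.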

Other observations

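The longest parts of the stretches with no peak in any of the 4 libraries were chr13:64644312-64907618 (263 kb), chr13:64423586-64636379 (213 kb) and chr6:79960169-80172662 (212 kb). The chromosome 13 parts lie next to each other, separated by a short part that holds peaks. Within 100 kb of the 8 borders of the stretches, pull-downs 1 and 2 had 20 and 27 peaks inside and 24 and 23 outside, and inputs 1 and 2 had 4 and 5 inside and 6 and 10 outside. Both pull-downs had more peaks inside on chromosome 1 (6 and 8 inside, 4 and 4 outside) and chromosome 5 (9 and 10 inside, 4 and 5 outside). Both had more outside on chromosome 6 (0 and 2 inside, 7 and 6 outside) and chromosome 13 (5 and 7 inside, 9 and 8 outside). These counts are small, and neither pattern was tested.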
